A study of Caenorhabditis elegans with 15 samples.

Results

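The antimicrobial effector genes described here are the rows of the deposited table whose symbol is *lys*, *ilys*, *spp*, *abf*, *fip* or *fipr* followed by a number, or *nlp-24* to *nlp-34*. The caenacin genes (*cnc*) were left out. The rule found 70 of 16259 genes, of which 13 encode lysozymes, 20 saposin-like proteins, 4 defensin-like peptides, 22 fungus-induced or related peptides and 11 peptides of the *nlp* family. The measurements are counts of poly-A RNA sequencing reads from whole *Caenorhabditis elegans* larvae of the L2 stage, grown at 20 °C on agar plates with *E. coli* as food. The 3 groups were *sma-6* mutants, *sma-3* mutants and the wild-type strain N2, with 5 libraries each. The alleles and the number of animals behind a library are not given in the labels. Nothing in the labels says that libraries came from separate cultures, so p-values measure the spread between these libraries, which may be technical. Before testing, 8 members (*spp-6*, *spp-9*, *spp-12*, *fip-1*, *fipr-13*, *fipr-24*, *fipr-29* and *nlp-32*) were dropped for low counts, with at most 31 counts in any library, which left 62.

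In the DBL-1 pathway, the branch of bone morphogenetic protein signalling that sets body size in *C. elegans*, *sma-6* encodes the type I receptor and *sma-3* a Smad protein that carries the signal to the nucleus. The pathway acts largely in the epidermis and is also known to control antimicrobial genes, among them the caenacins and several lysozymes. Lysozymes cut the bacterial cell wall, saposin-like proteins (caenopores) open pores in bacterial membranes, and *abf* genes encode small cysteine-rich antibacterial peptides. Many of these proteins are made in the intestine and pharynx. The *fip*, *fipr* and *nlp-29*-type genes encode short secreted peptides, and several of them are induced in the epidermis by fungal infection or wounding.

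Total counts per library lay between 16.5 and 48.3 M. The *sma-3* transcript averaged 23.6 ± 1.63 CPM (the gene's counts scaled to a common library size with TMM factors) in *sma-6* mutants, 9.91 ± 0.758 CPM in *sma-3* mutants and 26.9 ± 3.64 CPM in the wild type (SD, n = 5 each). The *sma-6* transcript averaged 9.33 ± 0.402 CPM in *sma-6* mutants, 24.9 ± 1.46 CPM in *sma-3* mutants and 42.5 ± 3.96 CPM in the wild type. Each mutated gene was thus lowest in its own mutant, in every library. Same-genotype libraries differed by more than sampling noise in all 30 pairs, with chi-square values of 5.09 to 40 per degree of freedom. Wild-type replicate 3 carried 301 CPM summed over 15 adult and oocyte genes (26.7 to 38.6 CPM in the rest of its group), and it was the highest wild-type library for 32 of the 62 members (51.6%, against 19.2% of all genes). Wild-type replicate 5 lay farther from the other wild-type libraries (0.459) than from the *sma-3* libraries (0.443). These are root-mean-square log2 differences over genes, averaged over libraries. That library was the lowest of the wild type for 32 members (51.6%, against 30.8% of all genes). Among the *sma-3* libraries, replicate 9 was the lowest for 35 members (56.5%, against 19.6% of all genes) and replicate 5 the highest for 34 (54.8%, against 21.4%). Several results are therefore given with and without some of these libraries.

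The antimicrobial genes took a small and similar share of all counts in the 3 genotypes. Together they held 0.370 to 0.453% of the counts in *sma-6* libraries, 0.339 to 0.446% in *sma-3* libraries and 0.375 to 0.454% in wild-type libraries, ranges that overlap throughout. Lysozymes and saposin-like genes each made up more than the *nlp* peptides, at medians of 0.147% and 0.146% over all libraries against 0.0571%. The fungus-induced genes held a median of 0.0444% and the defensin-like genes 0.00296%. The members are short, with a median of 433 bases of exon over all 70 against 1314.5 bases over all annotated genes of the table. Of the members, 75.7% have at most 2 exons, against 8.96% of all these genes. The members are unevenly placed, with 30 on chromosome V, 15 on X, 11 on IV, 9 on I, 4 on III and 1 on II. Of the 70, 44 lie in 15 runs in which neighbouring members are at most 20 kb apart (Ensembl release 115, build WBcel235). Reads shared between near-identical neighbours cannot be examined from counts, so values within such runs carry that uncertainty.

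**Figure D1:**
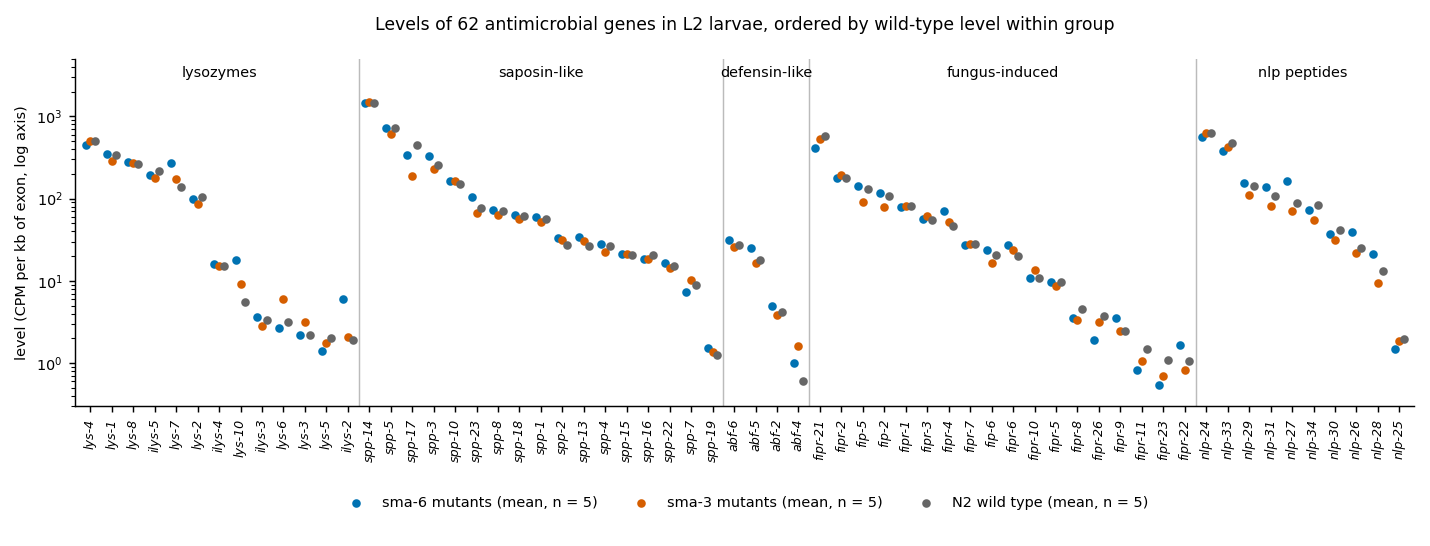
Mean level of each of the 62 tested members in *sma-6* mutants, *sma-3* mutants and the wild type (5 libraries each), in CPM per kb of exon on a log axis, ordered within each group by the wild-type level. Saposin-like genes alone span 1.26 to 1458 CPM per kb in the wild type, a far wider fold range than that between the genotypes of any single member. Members next to each other on the axis often differ by less than the genotypes do.

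Levels per length differed between members far more than between genotypes. In every genotype *spp-14* was the highest member per kb of exon, at 1466 ± 96.1 CPM per kb in *sma-6* mutants, 1507 ± 263 CPM per kb in *sma-3* mutants and 1458 ± 83.6 CPM per kb in the wild type. Among lysozymes *lys-4* was highest, with 451 ± 38.6 CPM per kb in *sma-6* mutants, 503 ± 62.2 CPM per kb in *sma-3* mutants and 502 ± 50.9 CPM per kb in the wild type. The leading defensin-like, fungus-induced and *nlp* genes were *abf-6*, *fipr-21* and *nlp-24*, at 27.4, 574 and 625 CPM per kb in the wild type. At the other end *lys-5*, *spp-19*, *abf-4*, *fipr-11* and *nlp-25*, the lowest tested member of each group by mean CPM, lay between 0.606 and 2.02 CPM per kb in the wild type. For a library of these depths, 3 counts amount to 0.0626 to 0.190 CPM, which is near the level of *abf-4* and *fipr-11*. Of the 10 genes named as extremes of their groups, *fipr-21* and *abf-4* passed a test between genotypes.

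Against the wild type, 14 of the antimicrobial genes changed, 6 in *sma-6* mutants and 8 in *sma-3* mutants. In *sma-6* mutants 5 members rose and 1 fell, which is 9.68% of the 62, against 6.50% of all genes tested, 3.00% higher and 3.51% lower (edgeR quasi-likelihood test, Benjamini-Hochberg adjusted p under 0.05 over all genes). The 5 were the lysozymes *lys-7*, *lys-10* and *ilys-2* and the peptides *nlp-27* and *nlp-28*, and *fipr-21* fell. In *sma-3* mutants 2 members rose (*lys-6* and *abf-4*) and 6 fell (*spp-17*, *ilys-5*, *fip-2*, *fip-5*, *nlp-31* and *nlp-34*), which is 12.9%, against 14.6% of all genes, 4.40% higher and 10.2% lower. No member was called in both comparisons with the wild type, which share the wild-type libraries, and 1.9% of all genes were. Other fits did give shared calls, among them the following. *spp-17* was called lower in both mutants in a fit with replicate number as a block (log2 -0.49 in *sma-6* mutants, edgeR adjusted p = 0.0043). It was also called lower in both when only the genotypes compared were fitted, and without *sma-3* replicate 9. Without wild-type replicates 3 and 5 together, *lys-7* and *lys-10* were called higher in both mutants. With all 15 libraries, the DESeq2 tool called *lys-10* higher in both. DESeq2 and limma-voom called *nlp-31* higher in *sma-6* and lower in *sma-3* mutants. With no filter on low counts, edgeR called *fipr-13* lower in both mutants. When the mutants were compared, 14 members were higher in *sma-6* mutants and 2 in *sma-3* mutants, which is 25.8% of the 62 members, against 23.1% of all genes, 12.7% higher and 10.3% lower in *sma-6* mutants. Counted in either direction, the members' share of calls stood near the background in each comparison. By direction, 5 of 62 members were higher and 1 lower in *sma-6* mutants against the wild type (all genes 3.00% and 3.51%). In *sma-3* mutants 2 of 62 were higher and 6 lower (all genes 4.40% and 10.2%). Between the mutants 14 of 62 were higher and 2 lower in *sma-6* mutants (all genes 12.7% and 10.3%). Whether these splits differ from the background was not tested. In RNA of whole larvae, fewer cells of a type and less RNA per cell cannot be told apart.

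The count for *sma-3* mutants moved with single libraries. It was 9 without wild-type replicates 3 and 5 together (all genes 18.7%, against 14.6% in the main fit). These were 5 higher and 4 lower, in place of 2 and 6. In that fit *abf-4*, *ilys-5* and *nlp-34* were no longer called, while *lys-7* (0.75), *lys-10* (1.10), *spp-7* (0.51) and *spp-13* (0.49) were called higher. The members' count was 5 without wild-type replicate 1 (all genes 9.43%), *sma-3* replicate 2 (14.2%) or *sma-6* replicate 1 (13%). It fell to 4 without wild-type replicate 4 (9.68%). It fell to 3 without wild-type replicate 2 (8.39%) or 3 (9.03%) or *sma-3* replicate 4 (11.2%) or 9 (9.08%). It rose to 10 without wild-type replicate 5 (22.2%), and to 9 without *sma-3* replicate 3 (13.4%) or 5 (10.4%) or *sma-6* replicate 3 (14.8%). The share over all genes thus moved as well. The members' count was also 4 with library totals as the only scaling (2 higher and 2 lower, all genes 15.6%). When only these 2 genotypes were fitted it was 3 (all genes 12.3%). The count for *sma-6* mutants was 10 without *sma-3* replicate 9 (all genes 6.59%), which enters that fit through the shared estimate of spread. Of the 8 calls, *lys-6* and *spp-17* held in every fit run. The libraries of *sma-6* mutants and the wild type did not overlap for 8 members (background 8.24% of all genes), those of *sma-3* mutants and the wild type for 2 (background 9.70%), and those of the mutants for 7 (background 15.9%).

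**Figure D2:**
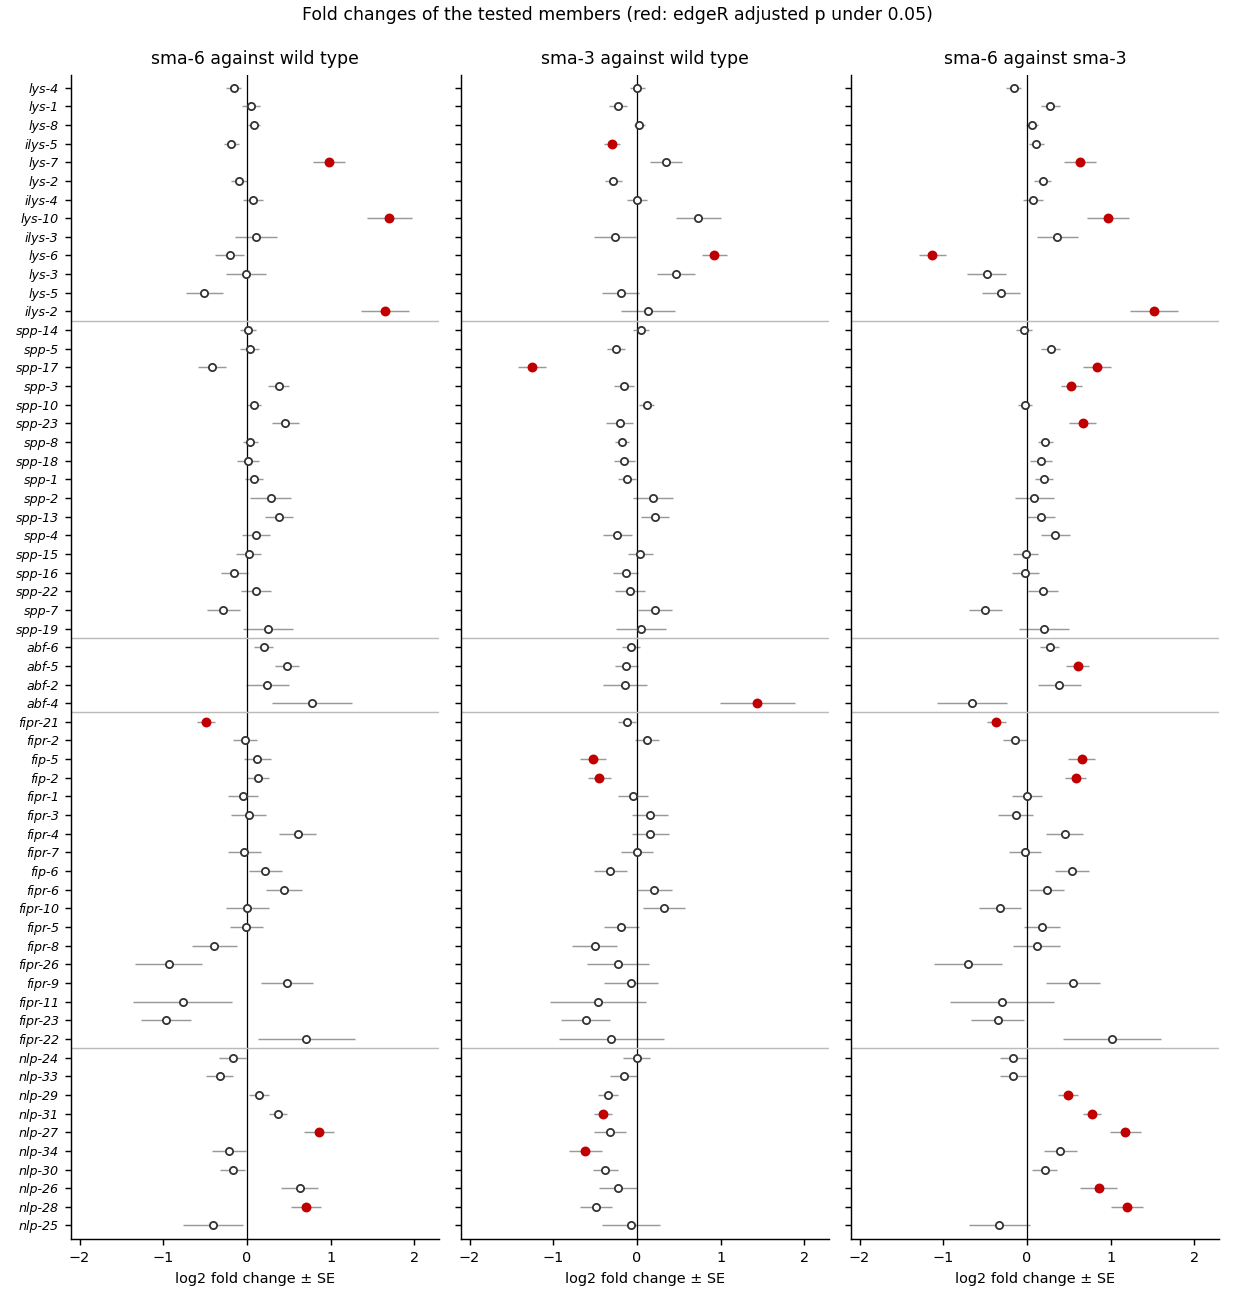
Log2 fold change ± SE of the 62 tested members, by group, in *sma-6* mutants against the wild type (left), *sma-3* mutants against the wild type (middle) and *sma-6* against *sma-3* mutants (right). Filled red points passed edgeR's test (6, 8 and 16 members), and the 10 *nlp* points of the middle panel all lie below 0, *nlp-24* only just (-0.01 ± 0.16).

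Median shifts were small in most groups. In *sma-6* mutants against the wild type the median log2 fold change was 0.05 for lysozymes, 0.08 for saposin-like, 0.36 for defensin-like, -0.00 for fungus-induced and -0.01 for *nlp* genes, against 0.01 over all genes. When *sma-3* mutants were set against the wild type, the median was 0.00 for lysozymes, -0.12 for saposin-like, -0.10 for defensin-like, -0.15 for fungus-induced and -0.33 for *nlp* genes, again against 0.01. Between *sma-6* and *sma-3* mutants it was 0.11 for lysozymes, 0.19 for saposin-like, 0.33 for defensin-like, 0.06 for fungus-induced and 0.45 for *nlp* genes, with 0.01 over all genes. With single libraries left out, the *sma-3* medians against the wild type ran from -0.14 to -0.02 for saposin-like genes (the -0.02 without wild-type replicate 3), from -0.15 to -0.01 for defensin-like genes (the -0.01 without *sma-3* replicate 9) and from -0.33 to -0.02 for fungus-induced genes (without *sma-3* replicates 5 and 9 in turn). The *nlp* median ran from -0.44 to -0.22 (again without replicates 5 and 9), and between the mutants from 0.34 to 0.55.

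Lysozymes gave the 3 largest rises of any member called in *sma-6* mutants. Of 13 tested, 3 rose and none fell in *sma-6* mutants against the wild type (23.1%, against 6.50% of all genes). In *sma-3* mutants 1 rose and 1 fell (15.4%, against 14.6% of all genes). Between *sma-6* and *sma-3* mutants 3 were higher and 1 lower (30.8%, against 23.1% of all genes). The genes that rose in *sma-6* mutants span both lysozyme types, since *lys-7* and *lys-10* belong to the protozoan-type family and *ilys-2* to the invertebrate-type family. They are not neighbours in the genome, with *lys-7* on chromosome V and *lys-10* and *ilys-2* at separate places on chromosome IV (build WBcel235).

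*lys-10* (chromosome IV, 8332826 to 8333518, a single exon) had 13.1, 17.5, 8.71, 14.6 and 7.68 CPM in *sma-6* libraries, 3.58, 7.08, 6.80, 8.43 and 5.64 CPM in *sma-3* libraries, and 2.88, 2.71, 6.12, 3.35 and 4.22 CPM in wild-type libraries. Every *sma-6* library exceeded every wild-type library, and the *sma-3* libraries lay across the gap. The transcript was 3.25-fold higher in *sma-6* mutants than in the wild type (log2 1.70 ± 0.27 SE, edgeR adjusted p = 0.000586) and higher than in *sma-3* mutants by 0.97 ± 0.25 (edgeR adjusted p = 0.0109). In *sma-3* mutants it did not pass (log2 0.73, edgeR adjusted p = 0.0791), but it did without wild-type replicates 3 and 5 (log2 1.10, edgeR adjusted p = 0.0162). DESeq2 called this rise with all 15 libraries (log2 0.73, DESeq2 adjusted p = 0.0373), and limma-voom did not. Without wild-type replicates 3 and 5, the highest of the wild-type libraries for this gene, the log2 change in *sma-6* mutants was 2.07 (edgeR adjusted p = 0.000373).

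*lys-7*, an intestinal lysozyme known for its induction by several pathogens, lies at 3481432 to 3482600 on chromosome V. It had 262, 306, 162, 284 and 200 CPM in *sma-6* libraries, 141, 155, 167, 178 and 143 CPM in *sma-3* libraries, and 89.2, 84.8, 168, 106 and 168 CPM in wild-type libraries. The lowest *sma-6* library lay just below wild-type replicates 3 and 5, so the ranges overlapped there. Its level was 1.98-fold higher in *sma-6* mutants than in the wild type (log2 0.98 ± 0.19, edgeR adjusted p = 0.00454), and the log2 value was 1.38 without wild-type replicates 3 and 5 (edgeR adjusted p = 9.69e-05). In *sma-3* mutants *lys-7* did not pass with all 15 libraries (log2 0.35 ± 0.19, edgeR adjusted p = 0.235). It did without those 2 libraries (log2 0.75, edgeR adjusted p = 0.00534). They are the highest wild-type libraries for this gene and were left out after the data were seen. Against *sma-3* mutants it was higher by 0.63 ± 0.19 (edgeR adjusted p = 0.0252). This call between the mutants was lost when *sma-6* replicate 1, 2 or 4 or *sma-3* replicate 2 or 9 was left out (log2 0.54 to 0.59, edgeR adjusted p 0.0533 to 0.0710).

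*ilys-2* (chromosome IV, 2467678 to 2468879, 4 exons) had 3.23, 2.93, 2.5, 4.1 and 2.12 CPM in *sma-6* libraries, 0.849, 0.877, 1.03, 1.46 and 0.932 CPM in *sma-3* libraries, and 1.72, 0.835, 1.20, 0.695 and 0.293 CPM in wild-type libraries. All 5 *sma-6* libraries stood above all 10 others. The rise was 3.14-fold against the wild type (log2 1.65 ± 0.29, edgeR adjusted p = 0.00190) and 2.87-fold against *sma-3* mutants (log2 1.52 ± 0.29, edgeR adjusted p = 0.00162). Its neighbour *ilys-3*, a lysozyme of the same family in the same run, had 1.77 ± 0.537 CPM in *sma-6* mutants, 1.38 ± 0.138 CPM in *sma-3* mutants and 1.65 ± 0.670 CPM in the wild type (SD, n = 5 each), ranges that overlapped throughout.

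*lys-6* was called higher in *sma-3* mutants than in the wild type, and did not pass in *sma-6* mutants (log2 -0.21 ± 0.17, edgeR adjusted p = 0.521). It had 2.01, 1.99, 1.78, 2.25 and 1.54 CPM in *sma-6* libraries, 5.23, 4.27, 4.30, 3.68 and 3.56 CPM in *sma-3* libraries, and 2.10, 2.02, 2.35, 1.77 and 2.87 CPM in wild-type libraries. All *sma-3* libraries stood above all 10 others. In *sma-3* mutants the transcript was 1.90-fold higher than in the wild type (log2 0.92 ± 0.15, edgeR adjusted p = 0.00136), and *sma-6* mutants were lower than *sma-3* mutants by 1.13 on the log2 scale (-1.13 ± 0.16, edgeR adjusted p = 0.000159). It is the last of a run of 3 lysozyme genes on chromosome IV that begins with *lys-4* and *lys-5* (11621429 to 11627947). Neither neighbour passed in any comparison. *lys-4* averaged 355 ± 30.4 CPM in *sma-6* mutants, 397 ± 49 CPM in *sma-3* mutants and 396 ± 40.1 CPM in the wild type, while *lys-5* averaged 0.990 ± 0.165 CPM in *sma-6* mutants, 1.23 ± 0.156 CPM in *sma-3* mutants and 1.42 ± 0.493 CPM in the wild type (SD, n = 5 each).

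*ilys-5* was the 1 lysozyme that fell in *sma-3* mutants. It had 245, 288, 237, 245 and 214 CPM in *sma-6* libraries, 231, 247, 209, 247 and 203 CPM in *sma-3* libraries, and 244, 285, 337, 252 and 280 CPM in wild-type libraries. The ranges overlapped, with the 2 highest *sma-3* libraries just above the lowest wild-type library. The log2 change in *sma-3* mutants was -0.30 ± 0.092 (edgeR adjusted p = 0.0370), and it no longer passed without wild-type replicates 3 and 5 (log2 -0.20, edgeR adjusted p = 0.149). Single omissions of wild-type replicate 2 or 3, *sma-3* replicate 2, 4 or 9 or *sma-6* replicate 1 also ended the call (log2 -0.29 to -0.21, edgeR adjusted p 0.0535 to 0.126), as did scaling by library totals alone.

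**Figure D3:**
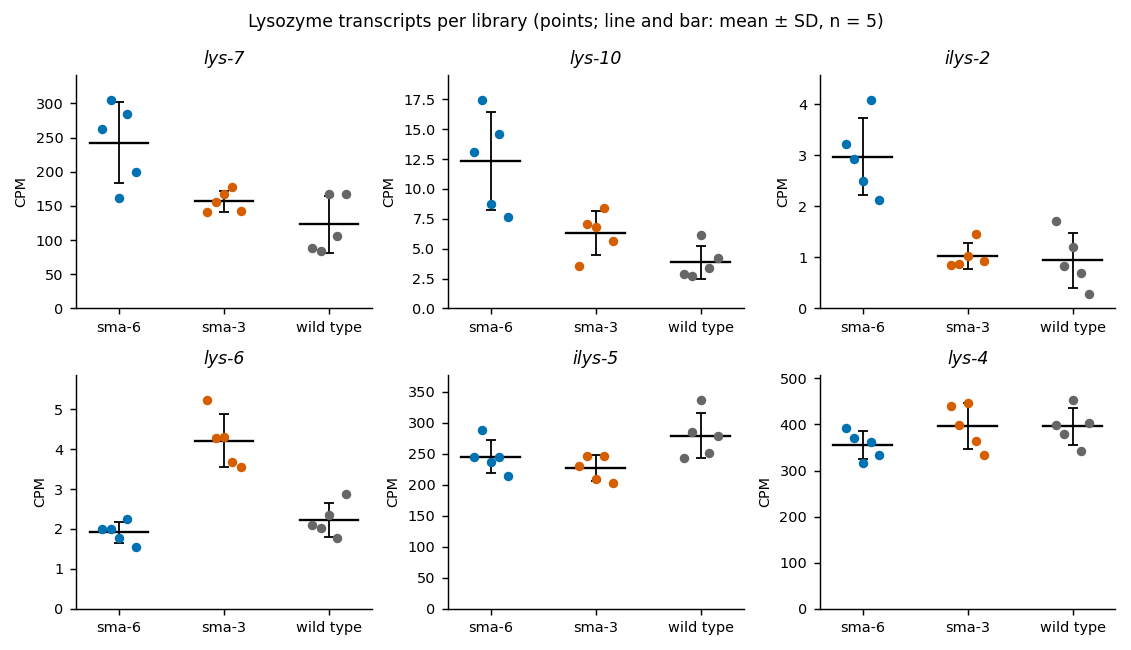
Normalized CPM of 6 lysozyme genes in each library of *sma-6* mutants, *sma-3* mutants and the wild type (points, with the mean and SD over 5 libraries, axes from 0). The *sma-6* points of *lys-10* and *ilys-2* lie above every wild-type point, the *sma-3* points of *lys-6* lie above all others, and *lys-4* shows 3 overlapping groups.

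The remaining lysozymes did not pass in any comparison over all 15 libraries. They were *lys-1*, *lys-2*, *lys-3*, *lys-4*, *lys-5*, *lys-8*, *ilys-3* and *ilys-4*, with log2 changes of -0.51 to 0.10 in *sma-6* mutants and -0.28 to 0.47 in *sma-3* mutants against the wild type. *lys-8*, a lysozyme known from other work to respond to DBL-1 signalling, averaged 273 ± 22 CPM in *sma-6* mutants, 262 ± 15.9 CPM in *sma-3* mutants and 257 ± 23.3 CPM in the wild type (SD, n = 5 each). Its log2 change was 0.09 ± 0.070 in *sma-6* mutants, with an edgeR adjusted p of 0.525. For *sma-3* it was 0.03 ± 0.070, with an edgeR adjusted p of 0.822. *lys-8* had the smallest spread within genotypes of all 62 members, with an SD of 0.111 on the log2 scale.

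Intestinal transcripts moved as well. Of all genes, 3.51% were called lower in *sma-6* mutants and 10.2% in *sma-3* mutants against the wild type, and 23.1% differed between the mutants. Of 9 intestine markers tested, none rose and 2 fell in *sma-6* mutants, *elt-2* by 0.36 and *ifb-2* by 0.48 on the log2 scale. None rose and 4 fell in *sma-3* mutants, *act-5* by 0.53, *vha-6* by 0.27, *elt-2* by 0.26 and *ifb-2* by 0.25. Between *sma-6* and *sma-3* mutants *act-5* (0.44) and *vha-6* (0.20) were higher and *ifb-2* (-0.23) and *asp-1* (-0.25) lower. The markers summed to 6030 to 7030 CPM in *sma-6* libraries, 6030 to 7540 CPM in *sma-3* libraries and 6370 to 7210 CPM in wild-type libraries, and none of the 9 was at 0. Their part in the lysozyme and saposin-like results was not tested.

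Among saposin-like genes *spp-17* stood out, with lower levels in *sma-3* mutants. Of 17 tested, no member passed in *sma-6* mutants against the wild type (*spp-3* and *spp-13* did without wild-type replicates 3 and 5). In *sma-3* mutants 1 fell (5.88%, against 14.6% of all genes called). Between *sma-6* and *sma-3* mutants 3 were higher and none lower (17.6%, against 23.1% of all genes called). *spp-17*, on chromosome I, had 130.7, 121.8, 134.7, 102.7 and 126.7 CPM in *sma-6* libraries, 79.2, 89.9, 68.1, 71.7 and 36.99 CPM in *sma-3* libraries, and 180.2, 186.7, 186.5, 151.6 and 119.4 CPM in wild-type libraries. Every *sma-3* library lay below all 10 others. In *sma-3* mutants the level was 42% of that in the wild type (log2 -1.26 ± 0.17, edgeR adjusted p = 0.000291), and *sma-6* mutants were higher than *sma-3* mutants by 0.84 ± 0.17 (edgeR adjusted p = 0.00270). In *sma-6* mutants the log2 value against the wild type was -0.42 ± 0.17 (edgeR adjusted p = 0.156). The lowest value, 36.99 CPM, came from *sma-3* replicate 9, without which the log2 change in *sma-3* mutants was -1.09 (edgeR adjusted p = 0.000138). Leaving out that library also brought the *sma-6* value of -0.42 past the threshold (edgeR adjusted p = 0.0369).

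*spp-17* and *spp-23* lie next to each other, 2.8 kb from end to end. *spp-23* had 25.2 to 37.8 CPM in *sma-6* libraries (median 33.3), 13.8 to 26.7 CPM in *sma-3* libraries (median 20.9) and 17.2 to 29.1 CPM in wild-type libraries (median 25.8). Its level in *sma-6* mutants exceeded that in *sma-3* by 0.67 ± 0.16 (edgeR adjusted p = 0.00753), although the ranges overlapped. Against the wild type the log2 value was 0.46 ± 0.16 for *sma-6* (edgeR adjusted p = 0.1) and -0.21 ± 0.16 for *sma-3* (edgeR adjusted p = 0.423). Both neighbours thus had their lowest mean in *sma-3* mutants, but *spp-17* had its highest in the wild type and *spp-23* in *sma-6* mutants.

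On chromosome X, 5 saposin-like genes fill a stretch of 5.4 kb with no other protein-coding gene in it (7314969 to 7320354, in the order *spp-3*, *spp-2*, *spp-6*, *spp-4*, *spp-5*). *spp-3* had 105 to 130 CPM in *sma-6* libraries (median 113), 61.9 to 91.8 CPM in *sma-3* libraries (median 80.0) and 70.2 to 114 CPM in wild-type libraries (median 82.1). All *sma-6* libraries exceeded all *sma-3* libraries, and the log2 difference was 0.53 ± 0.12 (edgeR adjusted p = 0.00399). Against the wild type the log2 change in *sma-6* mutants was 0.38 (edgeR adjusted p = 0.0618), which did not pass, although it did without wild-type replicates 3 and 5 (0.42, edgeR adjusted p = 0.0301). With all 15 libraries it passed under DESeq2 (0.37, DESeq2 adjusted p = 0.0339), limma-voom (0.39, limma-voom adjusted p = 0.0498) and scaling by library totals alone (0.40, edgeR adjusted p = 0.0412). The pore-forming protein encoded by *spp-5* is a well studied caenopore, and its transcript gave 0.03 in *sma-6* mutants and -0.25 in *sma-3* mutants against the wild type, neither past the test. *spp-2* and *spp-4* did not pass in any comparison, and *spp-6* was too low to test.

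The highest and lowest saposin-like genes showed no called difference. *spp-14* averaged 522 ± 34.2 CPM in *sma-6* mutants, 537 ± 93.7 CPM in *sma-3* mutants and 519 ± 29.8 CPM in the wild type, and *spp-19* averaged 1.07 ± 0.338 CPM in *sma-6* mutants, 0.940 ± 0.217 CPM in *sma-3* mutants and 0.871 ± 0.355 CPM in the wild type (SD, n = 5 each). Apart from *spp-17*, log2 changes against the wild type ran from -0.28 to 0.46 in *sma-6* mutants and from -0.25 to 0.22 in *sma-3* mutants. *spp-1*, an intestinal caenopore, gave 0.08 in *sma-6* mutants and -0.12 in *sma-3* mutants.

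**Figure D4:**
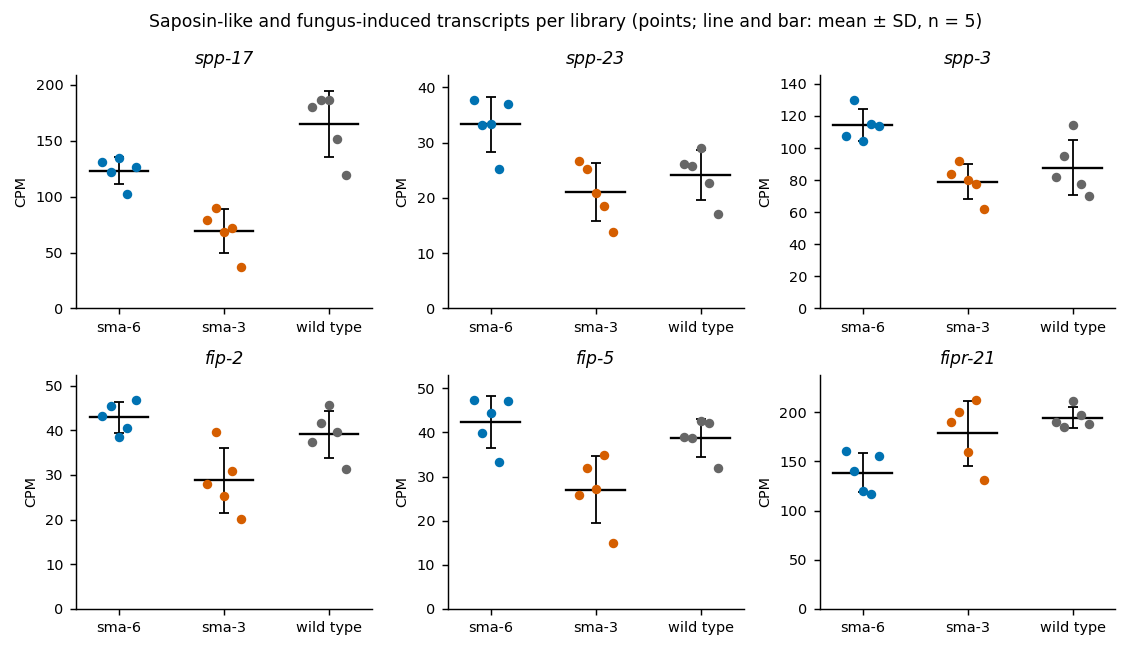
Normalized CPM of 3 saposin-like and 3 fungus-induced genes in each library of *sma-6* mutants, *sma-3* mutants and the wild type (points, with the mean and SD over 5 libraries, axes from 0). For *spp-17* the *sma-3* points lie below all others, and for *fipr-21* the *sma-6* points lie below all wild-type points.

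Of the 4 defensin-like genes, *abf-4* was higher in *sma-3* mutants than in the wild type and *abf-5* was higher in *sma-6* mutants when these were set against *sma-3*. *abf-4*, on chromosome V, had 0.370, 0.406, 0.204, 0.925 and 0.290 CPM in *sma-6* libraries, 0.613, 0.994, 0.835, 0.799 and 0.339 CPM in *sma-3* libraries, and 0.498, 0.230, 0.0523, 0.379 and 0.176 CPM in wild-type libraries. These are 1 to 21 counts per library, and wild-type replicate 3 had a single count. The ranges overlapped at *sma-3* replicate 9. The log2 change in *sma-3* mutants was 1.44 ± 0.45 (edgeR adjusted p = 0.0410). The call was lost when any 1 of 9 libraries was left out (wild-type replicates 2, 3, 4 and 5, *sma-3* replicates 3, 4 and 5, and *sma-6* replicates 1 and 2; log2 1.21 to 1.56, edgeR adjusted p 0.0502 to 0.108). With wild-type replicates 3 and 5 both left out it was 1.06 (edgeR adjusted p = 0.130).

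*abf-5* and *abf-6* are neighbours on chromosome X, within 2.0 kb (12792854 to 12794870). *abf-5* had 9.37 to 16.9 CPM in *sma-6* libraries (median 11.2), 6.27 to 9.43 CPM in *sma-3* libraries (median 8.19) and 7.51 to 9.23 CPM in wild-type libraries (median 8.58). The lowest *sma-6* library fell just inside the *sma-3* range and above the whole wild-type range. The difference between *sma-6* and *sma-3* mutants was 0.60 ± 0.14 (edgeR adjusted p = 0.00618), while the one against the wild type was 0.48 ± 0.14 (edgeR adjusted p = 0.0528). The latter passed under DESeq2 (0.47, DESeq2 adjusted p = 0.0253) but not under limma-voom. *abf-6* averaged 22.1 ± 2.87 CPM in *sma-6* mutants, 18.3 ± 3.18 CPM in *sma-3* mutants and 19.2 ± 1.19 CPM in the wild type (SD, n = 5 each) and did not pass in any comparison. *abf-2*, which encodes an antibacterial peptide of the pharynx, gave 0.25 ± 0.26 in *sma-6* mutants and -0.14 ± 0.26 in *sma-3* mutants against the wild type at about 1 CPM. Of 11 pharynx markers, none passed in *sma-6* mutants against the wild type and 1 rose in *sma-3* mutants (*phat-2*, log2 0.27), while between *sma-6* and *sma-3* mutants *phat-1* (-0.68), *phat-2* (-0.45) and *phat-4* (-0.33) were lower. Over all genes, 6.50% and 14.6% were called in *sma-6* and *sma-3* mutants against the wild type, and 23.1% between the mutants. The pharynx markers summed to 2040 to 2760 CPM in *sma-6* libraries, 2240 to 2760 CPM in *sma-3* libraries and 1950 to 2550 CPM in wild-type libraries, with none at 0, and their part in the *abf* results was not tested.

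Fungus-induced genes were mostly without a call. Of 18 tested, *fipr-21* fell in *sma-6* mutants, and *fip-2* and *fip-5* fell in *sma-3* mutants. Between *sma-6* and *sma-3* mutants *fip-2* and *fip-5* were higher and *fipr-21* was lower. These calls are 5.56%, 11.1% and 16.7% of the 18 genes, against 6.50%, 14.6% and 23.1% of all genes. The log2 changes against the wild type ran from -0.97 to 0.71 in *sma-6* mutants and from -0.61 to 0.32 in *sma-3* mutants.

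*fipr-21* (chromosome X, 10304529 to 10304867, a single exon) had 160, 141, 120, 116 and 156 CPM in *sma-6* libraries, 190, 200, 160, 213 and 131 CPM in *sma-3* libraries, and 191, 185, 212, 197 and 189 CPM in wild-type libraries. All *sma-6* libraries lay below all wild-type libraries, and the *sma-3* libraries reached into both ranges. The log2 change was -0.49 ± 0.11 in *sma-6* mutants against the wild type (edgeR adjusted p = 0.0144) and -0.37 ± 0.11 against *sma-3* mutants (edgeR adjusted p = 0.0279). Without wild-type replicates 3 and 5 the first gave -0.46 with an edgeR adjusted p of 0.0624. The second did not pass when *sma-3* replicate 3 or 5 or *sma-6* replicate 2, 3 or 4 was left out (log2 -0.37 to -0.30, edgeR adjusted p 0.0509 to 0.0740).

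*fip-5* lies beside *fipr-21*, within 2.1 kb on chromosome X, and its values ran another way. It had 47.4, 39.8, 44.4, 33.3 and 47.1 CPM in *sma-6* libraries, 25.9, 32.0, 27.2, 34.9 and 15 CPM in *sma-3* libraries, and 38.9, 38.7, 42.7, 42.0 and 31.8 CPM in wild-type libraries. The lowest of these values again belonged to *sma-3* replicate 9, and both *sma-6* and wild-type ranges overlapped the *sma-3* range at its upper end. In *sma-3* mutants *fip-5* fell by 0.53 on the log2 scale (-0.53 ± 0.16, edgeR adjusted p = 0.0373), and *sma-6* mutants exceeded *sma-3* mutants by 0.65 ± 0.16 (edgeR adjusted p = 0.00846). In *sma-6* mutants against the wild type the value was 0.13 ± 0.16 (edgeR adjusted p = 0.715).

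*fip-2*, on chromosome V, had 43.2, 45.5, 38.4, 40.5 and 46.8 CPM in *sma-6* libraries, 28, 39.6, 25.4, 30.9 and 20.1 CPM in *sma-3* libraries, and 37.4, 41.7, 45.6, 39.7 and 31.3 CPM in wild-type libraries. All but 1 of the *sma-3* libraries lay below all 10 others. It fell in *sma-3* mutants by 0.45 on the log2 scale (-0.45 ± 0.14, edgeR adjusted p = 0.0336) and *sma-6* mutants exceeded *sma-3* mutants by 0.58 ± 0.13 (edgeR adjusted p = 0.00571). The falls of *fip-2* and *fip-5* in *sma-3* mutants were sensitive to single libraries. Leaving out wild-type replicate 1, 2, 3 or 4 or *sma-3* replicate 2, 4 or 9 ended both calls, and leaving out *sma-3* replicate 5 ended that of *fip-2*. The log2 values were then -0.47 to -0.33 for *fip-2* (edgeR adjusted p 0.0514 to 0.0984) and -0.53 to -0.36 for *fip-5* (edgeR adjusted p 0.0619 to 0.0931). Scaling by library totals alone also ended both.

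The other fungus-induced genes include a run of 6 *fipr* genes over 19 kb of chromosome V (10220981 to 10239961), of which none passed. *fipr-26* lay lower in every *sma-6* library (0.204 to 0.969 CPM) than in every wild-type library (0.997 to 1.41 CPM), without passing the test (log2 -0.93 ± 0.40, edgeR adjusted p = 0.184). It was named after its values were seen. *fipr-11*, the lowest tested gene of the group, averaged 0.265 ± 0.191 CPM in *sma-6* mutants, 0.341 ± 0.226 CPM in *sma-3* mutants and 0.470 ± 0.276 CPM in the wild type (SD, n = 5 each), with 0 to 18 counts per library.

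Of 10 *nlp* peptide genes tested, *nlp-27* and *nlp-28* rose in *sma-6* mutants, and *nlp-31* and *nlp-34* fell in *sma-3* mutants. That is 20% in each mutant, against 6.50% of all genes in *sma-6* and 14.6% in *sma-3* mutants. Between *sma-6* and *sma-3* mutants 5 were higher (*nlp-26*, *nlp-27*, *nlp-28*, *nlp-29* and *nlp-31*) and none lower, where 12.7% of all genes were called higher. In *sma-3* mutants all 10 had a log2 change below 0 against the wild type, down to -0.62, where 6575 of 13720 genes did. Of the 10, *nlp-24* (-0.01 ± 0.16) and *nlp-25* (-0.07 ± 0.35) were well within their SE of 0. The calls of *nlp-31* and *nlp-34* both ended without *sma-3* replicate 9. In *sma-6* mutants 5 lay above and 5 below 0. Neighbouring genes are not independent observations, since 6 of the 10 lie in a single run.

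That run covers 10.9 kb of chromosome V (3978825 to 3989770) and holds *nlp-34*, *nlp-31*, *nlp-30*, *nlp-29*, *nlp-28* and *nlp-27*, in this order, with no other protein-coding gene between them. *nlp-34* is on the minus strand and the others are on the plus strand. The genes encode glycine-rich peptides of the epidermis, and *nlp-29* is the usual reporter of fungal infection and wounding.

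*nlp-27* had 54.5, 46.6, 51.3, 36.9 and 65.7 CPM in *sma-6* libraries, 20.8, 29, 19.5, 28.5 and 15.2 CPM in *sma-3* libraries, and 31.1, 23.7, 36.1, 30.3 and 19.8 CPM in wild-type libraries. Every *sma-6* library stood above all 10 others, and the *sma-3* and wild-type ranges overlapped. The gene was 1.81-fold higher in *sma-6* mutants than in the wild type (log2 0.86 ± 0.18, edgeR adjusted p = 0.00794) and 2.26-fold higher than in *sma-3* mutants (log2 1.18 ± 0.19, edgeR adjusted p = 0.000478).

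*nlp-28* had 6.50, 8.58, 5.50, 8.41 and 6.66 CPM in *sma-6* libraries, 3.21, 4.15, 2.39, 3.68 and 2.29 CPM in *sma-3* libraries, and 5.04, 3.86, 5.39, 4.74 and 2.99 CPM in wild-type libraries. Here too every *sma-6* library stood above all 10 others. The rise in *sma-6* mutants was 0.71 ± 0.18 on the log2 scale against the wild type (edgeR adjusted p = 0.0263) and 1.20 ± 0.19 against *sma-3* mutants (edgeR adjusted p = 0.000478). The first of these calls was lost without wild-type replicate 2 or 5 or *sma-6* replicate 2 or 4 (log2 0.60 to 0.65, edgeR adjusted p 0.0549 to 0.0828), and without wild-type replicates 3 and 5 together (0.67, edgeR adjusted p = 0.0623).

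*nlp-31*, whose peptide has antifungal activity, had 59.1, 56.8, 73.9, 57.5 and 67.4 CPM in *sma-6* libraries, 34.7, 40.9, 37, 41.5 and 29.4 CPM in *sma-3* libraries, and 47.1, 40.3, 54.8, 57.9 and 43.4 CPM in wild-type libraries. The wild-type libraries thus lay between the mutants, overlapping each range at its edge. In *sma-3* mutants the gene fell by 0.41 on the log2 scale (-0.41 ± 0.11, edgeR adjusted p = 0.0220). In *sma-6* mutants its value of 0.37 ± 0.11 just missed the threshold (edgeR adjusted p = 0.0504), and *sma-6* exceeded *sma-3* mutants by 0.78 ± 0.11 (edgeR adjusted p = 0.000199). The rise in *sma-6* mutants passed under DESeq2 (log2 0.37, DESeq2 adjusted p = 0.0266) and limma-voom (log2 0.39, limma-voom adjusted p = 0.0399). The fall in *sma-3* mutants was lost without wild-type replicate 3 or 4 or *sma-3* replicate 9 (log2 -0.35 to -0.32, edgeR adjusted p 0.0647 to 0.0727).

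The remaining genes of the run had smaller differences. *nlp-29* had 49 to 63 CPM in *sma-6* libraries (median 55.5), 29.5 to 49.1 CPM in *sma-3* libraries (median 37.2) and 42.9 to 55.7 CPM in wild-type libraries (median 51.2). The difference between *sma-6* and *sma-3* mutants was 0.49 ± 0.12 (edgeR adjusted p = 0.00710), a call lost without *sma-3* replicate 9 and *sma-6* replicate 6 together (log2 0.34, edgeR adjusted p = 0.0595). In edgeR neither mutant differed from the wild type past the threshold (0.14 ± 0.12 in *sma-6*, edgeR adjusted p = 0.531, and -0.35 ± 0.12 in *sma-3*, edgeR adjusted p = 0.0577). The fall in *sma-3* mutants passed under DESeq2 (-0.34, DESeq2 adjusted p = 0.047) and limma-voom (-0.36, limma-voom adjusted p = 0.0467). *nlp-34* had 14.8 to 24.5 CPM in *sma-6* libraries (median 16.7), 10.5 to 19.4 CPM in *sma-3* libraries (median 12.1) and 16.9 to 30.6 CPM in wild-type libraries (median 20.7). It fell in *sma-3* mutants by 0.62 on the log2 scale (-0.62 ± 0.20, edgeR adjusted p = 0.0486). This call near the threshold ended in 10 of the 15 fits that left out a library (wild-type replicates 1 to 4, *sma-3* replicates 2, 4 and 9, and *sma-6* replicates 1, 2 and 4; log2 -0.66 to -0.46, edgeR adjusted p 0.0505 to 0.153), without wild-type replicates 3 and 5, and under other scaling. *nlp-30* did not pass in any comparison, at 0.21 ± 0.15 between *sma-6* and *sma-3* mutants.

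**Figure D5:**
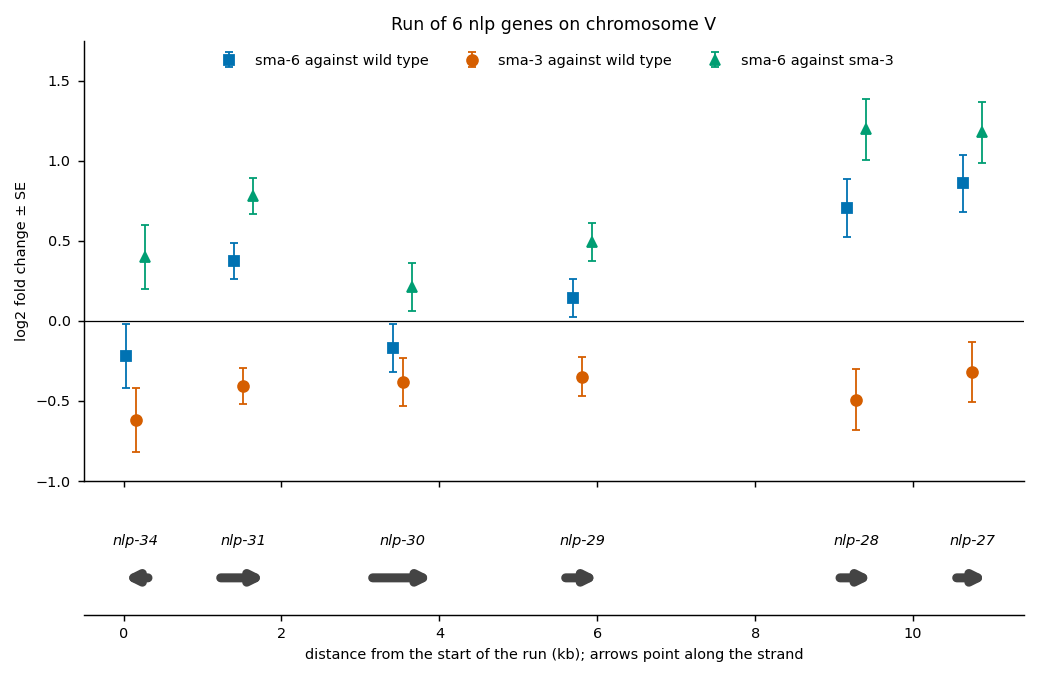
Log2 fold change ± SE of the 6 genes of the chromosome V run in *sma-6* mutants against the wild type, *sma-3* mutants against the wild type and *sma-6* against *sma-3* mutants, by distance from the start of the run (arrows point along the strand). All 6 *sma-3* values against the wild type lie between -0.62 and -0.32, while the *sma-6* values range from -0.22 for *nlp-34* to 0.86 for *nlp-27*.

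Elsewhere on chromosome V, *nlp-26* had 11.7 to 19.9 CPM in *sma-6* libraries (median 14.5), 4.36 to 11.8 CPM in *sma-3* libraries (median 9.23) and 5.45 to 11.4 CPM in wild-type libraries (median 10.7). Here *sma-6* mutants exceeded *sma-3* mutants by 0.86 ± 0.22 (edgeR adjusted p = 0.0110). The call was lost without *sma-3* replicate 9 and *sma-6* replicate 6 together (log2 0.56, edgeR adjusted p = 0.0691). All *sma-6* libraries lay above all wild-type libraries, but the log2 value of 0.63 ± 0.22 did not pass (edgeR adjusted p = 0.1). Its neighbour *nlp-25*, 8.4 kb from end to end with it and the lowest *nlp* gene tested, averaged 2.47 ± 0.661 CPM in *sma-6* mutants, 3.10 ± 2.37 CPM in *sma-3* mutants and 3.28 ± 0.885 CPM in the wild type (SD, n = 5 each). *nlp-24*, the highest, averaged 209.3 ± 34.3 CPM in *sma-6* mutants, 234.8 ± 69.9 CPM in *sma-3* mutants and 235.6 ± 19.8 CPM in the wild type (SD, n = 5 each). Neither passed in any comparison.

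Few epidermis and molting-cycle genes passed against the wild type. Of all genes, 6.50% were called in *sma-6* mutants and 14.6% in *sma-3* mutants against the wild type, and 23.1% between the mutants. Of 9 epidermis markers tested, 1 fell in *sma-6* mutants (*rol-6*, by 0.53 on the log2 scale) and none passed in *sma-3* mutants, and between *sma-6* and *sma-3* mutants *nhr-23* was higher (0.53) and *sqt-3* (-0.46) and *rol-6* (-0.53) were lower. Their sum was 2590 to 3050 CPM in *sma-6* libraries, 3320 to 4270 CPM in *sma-3* libraries and 2760 to 4770 CPM in wild-type libraries, and *bli-1*, too low to test, was at 0 in some libraries. Of 21 molting-cycle genes, none passed in *sma-6* mutants and 2 fell in *sma-3* mutants (*fbn-1* by 0.68 and *lpr-1* by 0.35 on the log2 scale). Set against *sma-3* mutants, *sma-6* mutants were higher for 5 of them (*fbn-1*, 0.84, *wrt-10*, 0.45, *noah-1*, 0.41, *mlt-11*, 0.40, and *lpr-1*, 0.32) and lower for *nas-36* (-0.35). Molting-cycle sums were 7270 to 9900 CPM in *sma-6* libraries, 6090 to 9210 CPM in *sma-3* libraries and 7050 to 9150 CPM in wild-type libraries. Their part in the *nlp* and fungus-induced results was not tested.

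On 3 lists of genes related to the control of these effectors, called changes lay between -0.36 and 0.21 on the log2 scale against the wild type. For all genes the called share was 6.50% in *sma-6* mutants (3.00% higher, 3.51% lower) and 14.6% in *sma-3* mutants (4.40% higher, 10.2% lower). Between the mutants it was 23.1%. Of 11 genes on a list of MAP kinase genes, which holds the p38 cascade that switches on antimicrobial genes and the JNK-type kinase genes *kgb-1* and *mek-1*, none rose and 3 fell in *sma-6* mutants (*kgb-1* by 0.27, *mek-1* by 0.25 and *tir-1* by 0.22 on the log2 scale). Another 2 rose (*skn-1*, 0.19, and *nsy-1*, 0.17) and *mek-1* fell (by 0.21) in *sma-3* mutants. Between *sma-6* and *sma-3* mutants *tir-1* (-0.32), *skn-1* (-0.26) and *kgb-1* (-0.15) were lower. On a list of 16 genes around the epidermal route that induces *nlp-29*, none passed against the wild type in either mutant. The list holds the receptor gene *dcar-1* but reaches beyond that route, with *mlt-11*, *pnp-1* and *sta-1* also on it. Its *mlt-11* was higher in *sma-6* mutants when set against *sma-3* (0.40 ± 0.12, edgeR adjusted p = 0.0273). Of 19 intestinal immune regulators, 1 rose and 2 fell in *sma-6* mutants (*daf-2*, 0.21, *elt-2*, -0.36, and *nhr-8*, -0.27). In *sma-3* mutants *daf-2* rose by 0.19 and *elt-2* fell by 0.26, and between *sma-6* and *sma-3* mutants *nhr-86* was higher (0.29) and *hsf-1* lower (-0.18). The lists share genes with the markers, since *elt-2* is also an intestine marker and *mlt-11* a molting-cycle gene. The median log2 changes of these 3 lists lay between -0.11 and 0.02 against the wild type.

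Of 12 DBL-1 pathway genes tested, 2 rose and 2 fell in *sma-6* mutants, and 2 rose and 4 fell in *sma-3* mutants (the mutated genes included). Over all genes, 6.50% were called in *sma-6* and 14.6% in *sma-3* mutants. *lon-1*, which is repressed by the pathway, was higher by 0.53 in *sma-6* and by 0.71 in *sma-3* mutants than in the wild type (edgeR adjusted p 0.000291 and 3.15e-05). *sma-10*, which encodes a membrane protein of the pathway, was higher by 0.67 in *sma-6* and by 0.41 in *sma-3* animals (edgeR adjusted p 0.00248 and 0.0322). *sma-2*, another Smad gene, was lower by 0.93 (-0.93) in *sma-6* mutants and by 0.69 (-0.69) in *sma-3* animals (edgeR adjusted p 7.83e-06 and 0.000316). *sma-4*, the third Smad gene, was lower by 0.20 (-0.20) in *sma-3* animals (edgeR adjusted p = 0.0420). Of 10 germline markers, 1 fell in *sma-3* mutants (*csr-1*, by 0.24) and none passed in *sma-6* mutants. When set against *sma-3* mutants, 5 were higher in *sma-6* mutants (0.32 to 0.66 on the log2 scale), where 12.7% of all genes were called higher. These germline markers summed to 335 to 512 CPM in *sma-6* libraries, 270 to 302 CPM in *sma-3* libraries and 251 to 402 CPM in wild-type libraries, and their part in the differences between the mutants was not tested.

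The authors' deposited table compares *sma-3* mutants with the wild type. Of the 70 members, 10 had in the authors' deposited table a false discovery rate under 0.05, 2 higher and 8 lower in *sma-3* mutants, against 12.8% of all 16259 genes. These include the 8 members called here by edgeR, and in addition *nlp-29* (log2 -0.37, false discovery rate 0.0442) and *fipr-13* (log2 -1.20, false discovery rate 0.0285). *fipr-13* had at most 20 counts in any library and was filtered out before the main fit. With no filter on low counts, edgeR called it lower in *sma-3* mutants (log2 -1.33, edgeR adjusted p = 0.0281) and in *sma-6* mutants (log2 -1.89, edgeR adjusted p = 0.00794). For *spp-17* the authors' deposited table gives -1.31 and for *lys-6* 0.92.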

How the data were processed

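The authors deposited a table of whole-number counts per gene for 16259 genes in 15 libraries, with CPM that equal each count over its library total (to within 5e-04). Per the submitters' processing notes, bcl2fastq, STAR 2.5.2b, featureCounts 1.5.2 and limma were used with build WBcel235; per the labels' protocols, RNA was selected with oligo dT and libraries were stranded. The authors also deposited log2 fold changes, p-values and FDR values that compare *sma-3* with N2. Genotype and replicate number came from the labels.

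Counts were fitted in R 4.3.3 with edgeR 4.0.16 (TMM factors, filterByExpr with a minimum count of 10 and minimum total of 15, 13720 genes left, glmQLFit and glmQLFTest on all 15 libraries with genotype as the only factor). Adjusted p-values are Benjamini-Hochberg values over all genes tested, and genes were called under 0.05. Standard errors were derived from the F statistic. Levels are TMM-scaled CPM, divided by summed exon length (Ensembl release 115) where given per kb. The fit was tested on simulated data. Depth was 16.5 to 48.3 M counts per library; floors of 3 counts cover counting error only, and no molecular identifiers are named in the labels.

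Members and lists were chosen with earlier results of these data known. Named genes are all members called in any comparison and the highest and lowest tested member of each group by mean CPM; *spp-5*, *spp-1*, *lys-8*, *ilys-3*, *abf-2*, *fipr-26*, *nlp-30*, *lys-1* to *lys-3*, *ilys-4*, *spp-2*, *spp-4* and the untested members were added with their values already seen, as neighbours, as well-studied genes or to complete a count. Alternatives covered RLE factors, library totals, other filters, DESeq2 1.42.0, limma-voom (limma 3.58.1), only the genotypes compared, a replicate block and leaving out each library; *spp-7* and *spp-13* are named as calls of one alternative; leaving out wild-type replicates 3 and 5 together was chosen after seeing the data. Same-numbered libraries did not deviate together, so the numbers were not treated as pairs. In the annotation, 100 genes carry a symbol that fits the rule, of which 26 have no row in the table and are not analysed here.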

Additional observations from a re-analysis of the deposited data

Results flagged for a closer look

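In 4 of 81 groups of 5 libraries examined (27 named members in 3 genotypes), 1 library stood apart from the other 4 of its genotype by Dixon's criterion, and chance flags about 1 in 20 groups. *abf-4* had 0.925 CPM in *sma-6* replicate 4, against 0.204 to 0.406 CPM in the other *sma-6* libraries. *nlp-24* had 150 CPM in *sma-6* replicate 3, against 215 to 239 CPM in the others. *nlp-25* had 7.23 CPM in *sma-3* replicate 5, against 1.56 to 2.92 CPM in the others. For *nlp-26*, wild-type replicate 5 held 5.45 CPM, below the 10.4 to 11.4 CPM of the other 4 libraries.

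For 11 named members the effects in *sma-6* and *sma-3* mutants, each against the shared wild-type libraries, had opposite signs, and the difference itself passed edgeR's test between the mutants. These are 17.7% of the 62 tested members, against 17.3% of all genes. In the main edgeR fit 5 of them (*abf-5*, *nlp-26*, *nlp-29*, *spp-3* and *spp-23*) passed against the wild type in neither mutant. Calls between the mutants were also part of the rule that named them. The log2 effect in *sma-6* minus that in *sma-3* mutants was 0.86 for *nlp-26*, 1.18 for *nlp-27*, 1.20 for *nlp-28*, 0.49 for *nlp-29* and 0.78 for *nlp-31*. It was 0.67 for *spp-23*, 0.53 for *spp-3* and 0.60 for *abf-5*. For the fungus-induced genes it was 0.58 for *fip-2* and 0.65 for *fip-5*. *lys-6* alone of the 11 had a negative difference, -1.13.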

How the results depend on the processing

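Of 30 called values, 15 stayed called in every alternative run, 15 were lost in at least 1, and 0 changed sign. The kept calls were *lys-6* and *spp-17* in *sma-3* mutants against the wild type, *ilys-2*, *lys-7*, *lys-10* and *nlp-27* in *sma-6* mutants against the wild type, and *ilys-2*, *lys-6*, *lys-10*, *nlp-27*, *nlp-28*, *nlp-31*, *spp-3*, *spp-17* and *spp-23* between the mutants. The count of 8 members called in *sma-3* mutants against the wild type was 4 with library totals as the only scaling (all genes 15.6%). It was 3 in a fit to only the genotypes compared (12.3%), and 3 to 10 with single libraries left out (8.39 to 22.2%). The count of 6 in *sma-6* mutants against the wild type was 5 to 10 with single libraries left out (all genes 4.45 to 7%). The count of 16 between the mutants was 14 to 19 (all genes 17.8 to 26.5%). For *sma-6* against the wild type, *sma-3* against the wild type and *sma-6* against *sma-3*, DESeq2 gave 9, 10 and 17 members. Its shares of all genes were 9.44%, 17.7% and 26%. In the same order limma-voom gave 8, 9 and 18 members, against 6.63%, 15.8% and 23.8% of all genes. With the replicate block over 13 libraries (all but *sma-3* replicate 9 and *sma-6* replicate 6) the 3 counts were 7, 2 and 11. The shares of all genes were then 3.81%, 5.88% and 7.84%. Without the block term the same libraries gave 6, 3 and 13, against 4.96%, 7.32% and 13.9% of all genes. The block ended the calls of *abf-5*, *fip-2*, *fip-5*, *lys-7*, *nlp-26* (log2 0.41) and *nlp-29* between the mutants. Of these, *lys-7*, *nlp-26* and *nlp-29* were lost without the term too. Of 11 pairs of same-numbered libraries, 2 had a correlation of deviations over 0.1 (range -0.123 to 0.127), so the numbers were not taken as pairs. The cause of these shifts was not tested. Group medians near 0 changed sign: that of the fungus-induced genes between the mutants was -0.05 to 0.16 with single libraries left out. Genes near 1 CPM or below, such as *abf-4* and *fipr-11*, rest on few counts.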

Other observations

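The annotation gives saposin-like names to 4 further genes that the deposited table lists under sequence names, and they are outside the rule. These are *spp-24* (*F23F1.7*), *spp-25* (*K02A11.4*), *spp-28* (*R74.10*) and *spp-31* (*Y77E11A.14*). *spp-31* averaged 6.53 CPM in *sma-6* mutants, 8.84 CPM in *sma-3* mutants and 8.41 CPM in the wild type, and the mutants differed (log2 -0.44 for *sma-6* over *sma-3*, edgeR adjusted p = 0.0163). The other 3 did not pass in any comparison.

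*nlp-32*, too low to be tested, had 2 to 10 counts in each *sma-6* library, 0 to 2 in each *sma-3* library and 0 to 2 in each wild-type library. With no filter on low counts edgeR called it higher in *sma-6* mutants against both other groups. The within-genotype spread of log2 CPM had a median SD of 0.314 over the 62 tested members, against 0.174 over all genes, and *fipr-11* had the widest (0.969).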
